A study of Mus musculus with 42 samples.

Results

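Scid lines are mouse pre-B cell lines, transformed by v-abl, with a mutation of Prkdc, the gene of the DNA-dependent protein kinase catalytic subunit (DNA-PKcs), and their response to 1 Gy of ionizing radiation was measured on 6 of the 42 Affymetrix arrays of the study. The arrays were chosen by their labels: 3 Scid lines, each with 1 array taken 2 h after 1 Gy and 1 array taken 2 h after mock treatment, out of 21 lines of 7 genotypes. The irradiated cells received γ-rays from a caesium source at 0.72 Gy per minute. The groups used here were irradiated and untreated Scid lines, irradiated and untreated wild-type (WT) lines, and irradiated and untreated Atm-/- lines, with 3 lines each. The other genotypes were Mre11A/A, 53bp1-/-, H2ax-/- and Mdc1-/-. Every line, WT included, came from bone marrow of mice aged 3 to 5 weeks that carried the Eμ-Bcl2 transgene, which makes B-lineage cells produce the survival protein Bcl2, and every line was transformed with the retrovirus pMSCV-v-abl. The cells are therefore transformed and protected from apoptosis, which limits them as a model of bone marrow pre-B cells. Arrays of a group are numbered as biological replicates in the labels, which do not say whether each line came from a mouse of its own. The p-values and SE therefore speak for lines, not mice. They rest on a spread pooled for each gene over all 21 lines of 7 genotypes. They do not measure the spread of the 3 Scid lines alone.

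DNA-PKcs is recruited by the Ku proteins to broken DNA ends, where it helps to process and join them in nonhomologous end joining; without it, hairpin ends made during V(D)J recombination stay unopened and B and T cells do not mature. A separate kinase, Atm, is activated at double-strand breaks and phosphorylates p53, its partner Mdm2, the checkpoint kinase Chk2 and Nemo, through which NF-kB is activated. p53 is a transcription factor that switches on genes of cell-cycle arrest, death and repair. NF-kB is a family of dimeric factors held in the cytoplasm by IkB inhibitors, and its targets include those inhibitors, adhesion molecules and survival genes. Genes of G2 and mitosis are held down by the DREAM complex, which binds the cell-cycle homology region (CHR) of their promoters when p21, the product of Cdkn1a, inhibits the cyclin-dependent kinases.

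Promoter stretches of 9 genes from these 3 programmes are printed because each gene changed in Scid lines after radiation and each stretch holds a match to the sequence known for its programme. They come from RefSeq, assembly GRCm38.p6, and run 5′ to 3′ along the strand of the gene, with positions counted from the transcription start used. For a gene with several listed starts, the first start whose stretch holds a match was used. The positions therefore hold for that start, and other starts of the gene can lie elsewhere. In the first 3 the capitals mark matches to the p53 half-site, in the next 2 matches to the kB consensus, and in the last 4 matches to the CHR sequence TTTGAA and to CCAAT, the box bound by NF-Y. Both strands were searched, so that the reverse complements TTCAAA and ATTGG also stand in capitals, and no matches of different motifs overlap in these stretches. A match is a match of letters and does not show that a factor binds there.
Cdkn1a, chr17:29090869-29090968, plus strand: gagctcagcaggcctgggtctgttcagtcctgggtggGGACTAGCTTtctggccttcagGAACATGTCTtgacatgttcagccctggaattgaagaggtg
Mdm2, chr10:117710869-117710968, minus strand: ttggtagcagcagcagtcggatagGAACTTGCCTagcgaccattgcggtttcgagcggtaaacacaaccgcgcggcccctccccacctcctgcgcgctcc
Ccng1, chr11:40755397-40755496, minus strand: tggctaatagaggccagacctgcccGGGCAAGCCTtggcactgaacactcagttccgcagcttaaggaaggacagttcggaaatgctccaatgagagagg
Nfkbia, chr12:55492638-55492767, minus strand: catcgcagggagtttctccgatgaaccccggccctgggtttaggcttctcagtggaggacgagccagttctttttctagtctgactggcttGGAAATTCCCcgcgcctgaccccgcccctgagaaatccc
Nfkbie, chr17:45555580-45555709, plus strand: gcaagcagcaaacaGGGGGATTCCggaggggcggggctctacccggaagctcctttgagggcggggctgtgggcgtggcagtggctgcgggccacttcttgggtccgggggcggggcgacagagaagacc
Aspm, chr1:139454693-139454792, plus strand: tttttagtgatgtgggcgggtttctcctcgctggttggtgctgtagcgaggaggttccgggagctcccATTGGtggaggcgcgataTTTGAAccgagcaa
Cenpf, chr1:189688067-189688166, minus strand: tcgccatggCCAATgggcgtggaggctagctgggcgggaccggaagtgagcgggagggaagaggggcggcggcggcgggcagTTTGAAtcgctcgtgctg
Depdc1a, chr3:159495353-159495452, plus strand: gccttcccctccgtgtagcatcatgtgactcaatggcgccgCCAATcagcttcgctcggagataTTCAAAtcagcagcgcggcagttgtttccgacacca
Cdc20, chr4:118437324-118437423, minus strand: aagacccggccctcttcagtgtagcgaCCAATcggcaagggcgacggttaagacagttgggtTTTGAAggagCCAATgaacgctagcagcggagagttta
Cdc20 was chosen for this display after its values were seen. The p53 half-site of Cdkn1a begins at positions -73 and -51, that of Mdm2 at -186 and that of Ccng1 at -185. The kB match of Nfkbia begins at -29 and that of Nfkbie at -106, and the CHR of the 4 mitotic genes at 7, 3, -16 and -18 in the printed order. Only matches inside the printed stretch were kept, which ran from -80 to 20 for the mitotic genes. How near a match lies to the start was therefore set by the stretch and is no result.

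The deposited signals are linear MAS5 intensities scaled so that each array has the same trimmed mean of 500, and the median signal of the 6 Scid arrays was 68 to 82.7. The other genotypes had array medians of 62.3 to 115, or 62.3 to 80.8 without the irradiated arrays of WT line 4 and Atm-/- line 2, which stood apart. The label of pre-B cells was checked on markers: 8 of 9 defining ones, all but Rag2, lay above the array median on all 6 arrays, with a summed signal of 60020 to 95610 on irradiated and 54760 to 93250 on untreated arrays. Of the T cell markers 6 of 10 were above the median on no array, among them Cd3e, Cd3d, Cd3g and Cd4, while Cd28 was above it on all 6, at 239 to 1390 irradiated and 269 to 1410 untreated. Cd5 reached 717 and Zap70 399 on single arrays. Of the myeloid markers 6 of 13, of the erythroid 3 of 6 and of the stromal 8 of 13 were above the median on no array, while Fcgr3 and Csf1r among the myeloid, Tfrc among the erythroid and Vim among the stromal markers were above it on all 6; Fcgr3 read 257 to 2480 irradiated and 214 to 2620 untreated. The summed signals on irradiated and untreated arrays were 656 to 2316 and 509 to 2478 for T cell, 969 to 3301 and 796 to 3246 for myeloid, 7622 to 10020 and 9442 to 10170 for erythroid, and 11710 to 16310 and 10360 to 16480 for stromal markers, and their part in the results was not tested. Prkdc itself read 525 ± 70.5 in Scid lines and 593 ± 46.2 in WT lines (SD, n = 6 arrays each), and since the Scid allele is a point mutation this level does not check the label. Signals of different genes come from different probe sets and were not compared with each other.

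After radiation 332 of 12363 genes changed in Scid lines in the limma fit that paired both arrays of a line, at a Benjamini-Hochberg adjusted p under 0.05, which is 2.69% of the genes tested. Of these, 213 were higher (1.72%) and 119 lower (0.963%). The increases were the larger changes, with a median log2 change of 0.74 and 59 genes above 1, whereas the decreases had a median of -0.42 and 5 genes beyond -1. The direction was the same in all 3 lines for 212 of the 213 and for 119 of the 119 genes, although the call itself rests on that agreement. Irradiated and untreated arrays did not overlap for 142 of the higher and 44 of the lower genes; over all genes, 3.96% had all irradiated arrays above and 3.76% had all below the untreated ones. Without pairing, 9 genes passed, 8 higher and 1 lower, and without Scid line 1 the paired count was 66. The p53 and NF-kB programmes and the genes of G2 and mitosis held 37 of the 213 higher and 21 of the 119 lower genes, so that most changed genes belong to none of these lists.

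**Figure D1:**
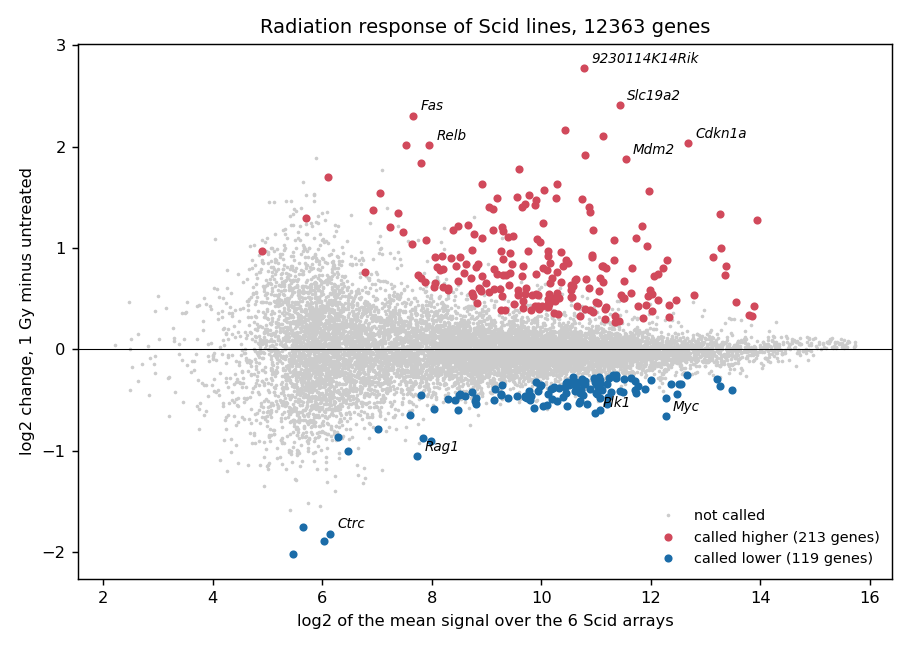
Log2 change of each of 12363 genes in Scid lines (1 Gy minus untreated, mean of 3 lines, vertical axis) against the log2 mean signal of the 6 arrays (horizontal axis), with 213 genes called higher in red, 119 called lower in blue and the rest in grey. The red points reach a change of 2.77, and few of them lie at low signals (4 of the 213 genes have both group means under 150). Most blue points lie between 0 and -1, and the few blue points below -1 have low signals.

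The p53 programme rose in Scid lines. Of 45 measured p53 targets 23 were called higher (51.1%, against 1.72% of all genes) and none lower. This list and those below were chosen with earlier results of these data known, so their shares are descriptions and carry no test. The median change of the list was 0.95 against -0.01 over all genes, and 35 were higher in all 3 lines, against 14.5% of all genes. The largest called change of the list was that of Slc19a2, a thiamine transporter and p53 target, with 5972, 3791 and 4269 on the irradiated arrays of lines 1, 2 and 3, against 1008, 872 and 707 on the untreated ones. The groups were far apart, and the log2 change was 2.41 ± 0.24 (SE, n = 3 lines, adjusted p = 2.51e-06). Cdkn1a, which encodes the cyclin-dependent kinase inhibitor p21, read 14230, 10860 and 6844 irradiated, against 3021, 2911 and 1721 untreated. Every irradiated array lay above every untreated one, with a change of 2.04 ± 0.18 (SE, n = 3, limma adjusted p = 6.95e-07), the smallest p of the list.

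Negative regulators of p53 were among the risers. Mdm2, the ubiquitin ligase that degrades p53, read 6714, 3849 and 3625 irradiated, against 1420, 1262 and 1032 untreated, a change of 1.87 ± 0.19 (SE, n = 3, limma adjusted p = 3.64e-06). Ccng1, cyclin G1, which takes part in the control of Mdm2, read 28970, 18750 and 19290 irradiated, against 10550, 8944 and 7809 untreated, a change of 1.28 ± 0.16 (limma adjusted p = 3.48e-05, n = 3). Neither gene had overlapping groups, and other probe sets of Mdm2 and Ccng1 changed by 1.40 to 1.77 and 1.36 to 1.60. Ppm1d, a phosphatase that restrains p53, had a change of 0.60 (limma adjusted p = 0.0505, n = 3), and Mdm4, a relative of Mdm2, one of 0.33 (limma adjusted p = 0.0743, n = 3); neither passed, and both were chosen after their values were seen.

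Death and arrest genes of the p53 list changed alongside. Bbc3, which encodes the death protein Puma, read 1627, 1171 and 1142 irradiated, against 507, 486 and 346 untreated (log2 change 1.52 ± 0.21, SE, n = 3, limma adjusted p = 0.00011). Fas, a death receptor, read 405, 322 and 296 irradiated, against 37.3, 121 and 34.3 untreated, and its untreated levels in lines 1 and 3 lay under the array medians (2.30 ± 0.39, limma adjusted p = 0.000996, n = 3). Pmaip1, the death protein Noxa, rose by 1.35, but by 1.95, 0.42 and 1.68 in lines 1, 2 and 3. Bcl2l11, the death protein Bim and not a member of the p53 list, rose by 0.91, and Apaf1, on which the apoptosome assembles, by 0.68. Of 32 apoptosis genes measured 6 were called, all higher (18.8%, against 1.72% of all genes). They were Bbc3, Apaf1, Fas, Bcl2l11, Birc3 and Pmaip1, most of which the p53 or NF-kB list also holds. Mcl1, which opposes them, had a change of -0.24 (limma adjusted p = 0.243, n = 3).

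Btg2, an antiproliferative p53 target, rose within every line from different levels. It read 2265, 272 and 1528 irradiated, against 931, 72.3 and 619 untreated. The groups overlapped because line 2 was low under both conditions, yet the change within lines was 1.27, 1.71 and 1.28 (mean 1.42 ± 0.21, SE, n = 3, limma adjusted p = 0.000222). Another of its probe sets changed by 0.67. Phlda3, an inhibitor of Akt signalling, was likewise low in line 2, with 2542, 124 and 1910 irradiated, against 610, 95.0 and 449 untreated, and it rose by 2.03, 0.34 and 2.05; it was chosen after its values were seen.

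Repair and stress genes complete the p53 list. Ddias, which protects cells from death after damage, rose by 2.10, Polk, a translesion polymerase, by 1.63, and Ercc5, the nuclease of nucleotide excision repair, by 1.58. Sesn2, a stress regulator of mTORC1, rose by 1.49, Trp53inp1, a cofactor of p53, by 1.34, and the exonuclease gene Aen by 1.08. The related Sesn1 had a change of -0.36 (limma adjusted p = 0.267, n = 3), and Ccng2 one of -0.25. The metabolic gene Tigar had a change of -0.17 and did not pass.

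**Figure D2:**
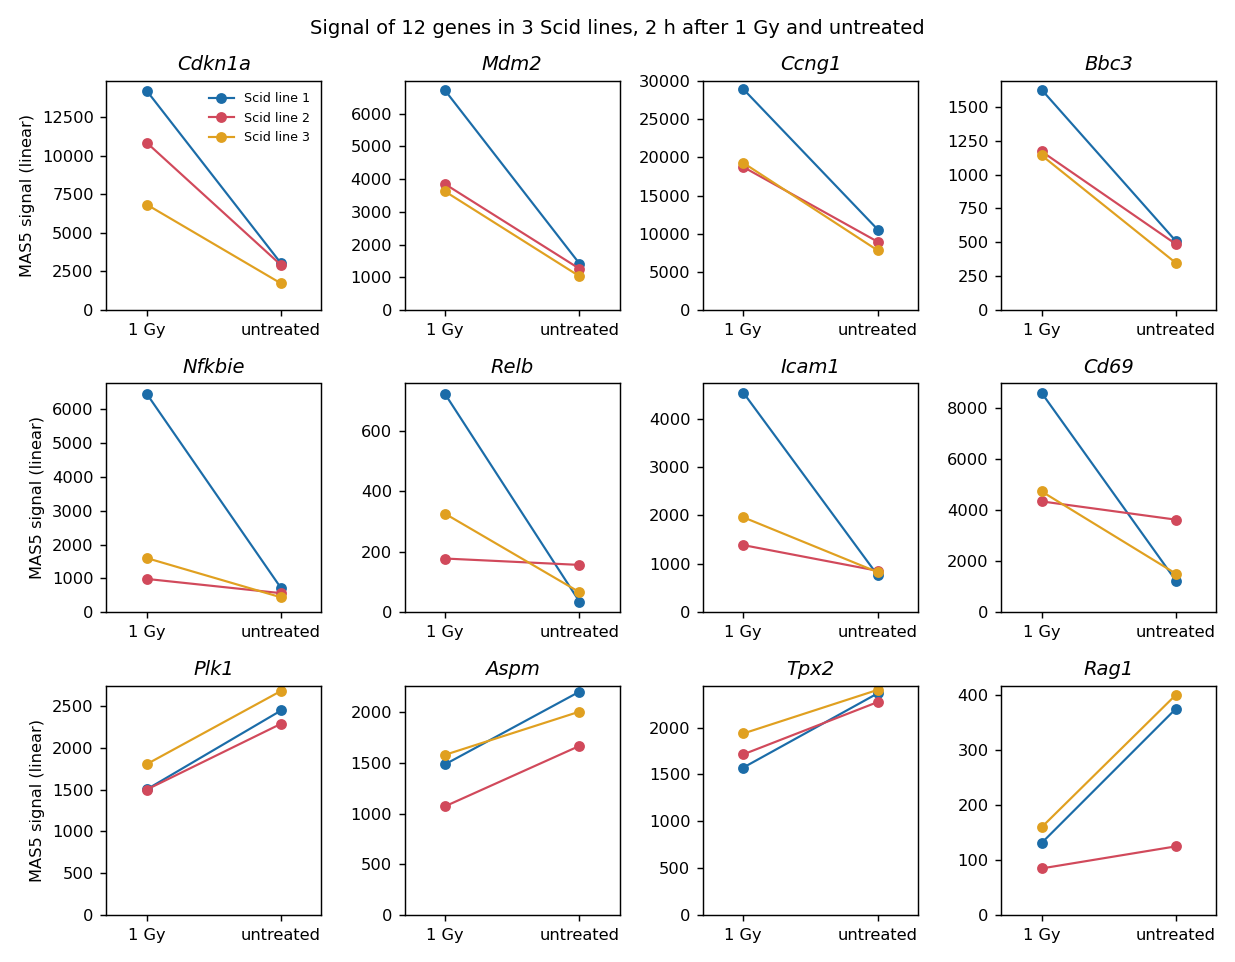
MAS5 signal (linear, vertical axis) of 12 genes in Scid lines 1, 2 and 3 at 1 Gy and untreated, with a line joining the 2 arrays of each cell line. Cdkn1a, Mdm2, Ccng1 and Bbc3 are higher at 1 Gy in each line, Nfkbie, Relb, Icam1 and Cd69 climb most in line 1 and least in line 2, and Plk1, Aspm, Tpx2 and Rag1 are lower at 1 Gy in each line.

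NF-kB genes also rose, but unevenly over the lines. Of 37 measured subunits, inhibitors and targets 13 were called higher (35.1%, against 1.72% of all genes) and none lower. The median change of the list was 0.61. The list median was 1.02 in line 1, 0.10 in line 2 and 0.42 in line 3. Without line 1, 4 of the 13 were called. With the spread taken from the Scid arrays alone, 5 genes of the list were called. Among the subunits, Relb of the noncanonical pathway read 722, 178 and 326 irradiated, against 35.9, 157 and 67.0 untreated. The groups did not overlap, but the change was 3.83, 0.17 and 2.04 in lines 1, 2 and 3 (mean 2.01 ± 0.42, SE, n = 3, limma adjusted p = 0.00727). In line 2 the untreated level of Relb was the highest of the 3 and moved little, and in lines 1 and 3 the untreated signals lay under the array medians.

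The inhibitors followed. Nfkbie, which encodes IkBε, read 6442, 987 and 1602 irradiated, against 715, 567 and 445 untreated, a change of 1.91 ± 0.26 (SE, n = 3, limma adjusted p = 0.000123). Nfkbia, which encodes IkBα, read 19450, 8263 and 12050 irradiated, against 10340, 5794 and 6993 untreated; the groups overlapped, and the change was 0.91, 0.51 and 0.78 within lines (mean 0.73 ± 0.10, n = 3, limma adjusted p = 0.00011). Bcl3, a nuclear IkB relative, rose by 2.01, and Nfkbiz, another nuclear member, by 0.75, with 0.35 to 1.09 on its other probe sets. Bcl3 read 50.7 irradiated and 5.04 untreated in line 2, both under the array medians, as was its untreated signal in line 1. Tnfaip3, the deubiquitinase A20 that ends NF-kB signalling, rose by 1.12 and was chosen after its values were seen.

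Among the surface molecules, Icam1, an adhesion receptor, read 4534, 1389 and 1963 irradiated, against 765, 859 and 831 untreated (1.48 ± 0.21, SE, n = 3, limma adjusted p = 0.00019). The untreated lines were close together, and the irradiated arrays spread widely with line 1 on top. Cd69, an early activation marker that retains lymphocytes in tissue, read 8570, 4335 and 4723 irradiated, against 1232, 3621 and 1509 untreated, and line 2 started high and changed by 0.26. Cd40, the TNF-receptor family member that receives T cell help, read 800, 122 and 210 irradiated, against 44.0, 60.5 and 105 untreated, with changes of 3.77, 0.85 and 0.91; its untreated signals of lines 1 and 2 lay under the array medians. Birc3, an inhibitor of apoptosis, rose by 0.80, although another of its probe sets changed by 0.02. Swap70, a signalling protein of activated B cells, rose by 0.91. Ier3 had changes of 2.82, -0.01 and 1.36 and did not pass (limma adjusted p = 0.1, n = 3).

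The size of these changes differed between the lines. Over the 13 called NF-kB genes the median change was 2.05, 0.40 and 0.91 in lines 1, 2 and 3, and line 1 had the largest change for all 13. It also had the largest change for 16 of the 23 called p53 targets and for 158 of all 213 genes called higher. Most of the 13 were not called without line 1, so their count follows in part from the choice of called genes. For 11 of these 13 genes the change of line 2 was under 0.5 of that of line 1, with a median ratio of line 2 to line 1 of 0.23, from 0.04 for Relb to 0.58 for Bcl3. Over the 23 called p53 targets the line medians were 1.60, 1.09 and 1.30, and 6 of 23 lay under 0.5 of line 1, with a median ratio of 0.61. Among all 213 genes called higher, 85 (39.9%) had a change in line 2 under 0.5 of that in line 1. These are descriptions of 3 lines, and no test was made of the difference between lists or lines.

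**Figure D3:**
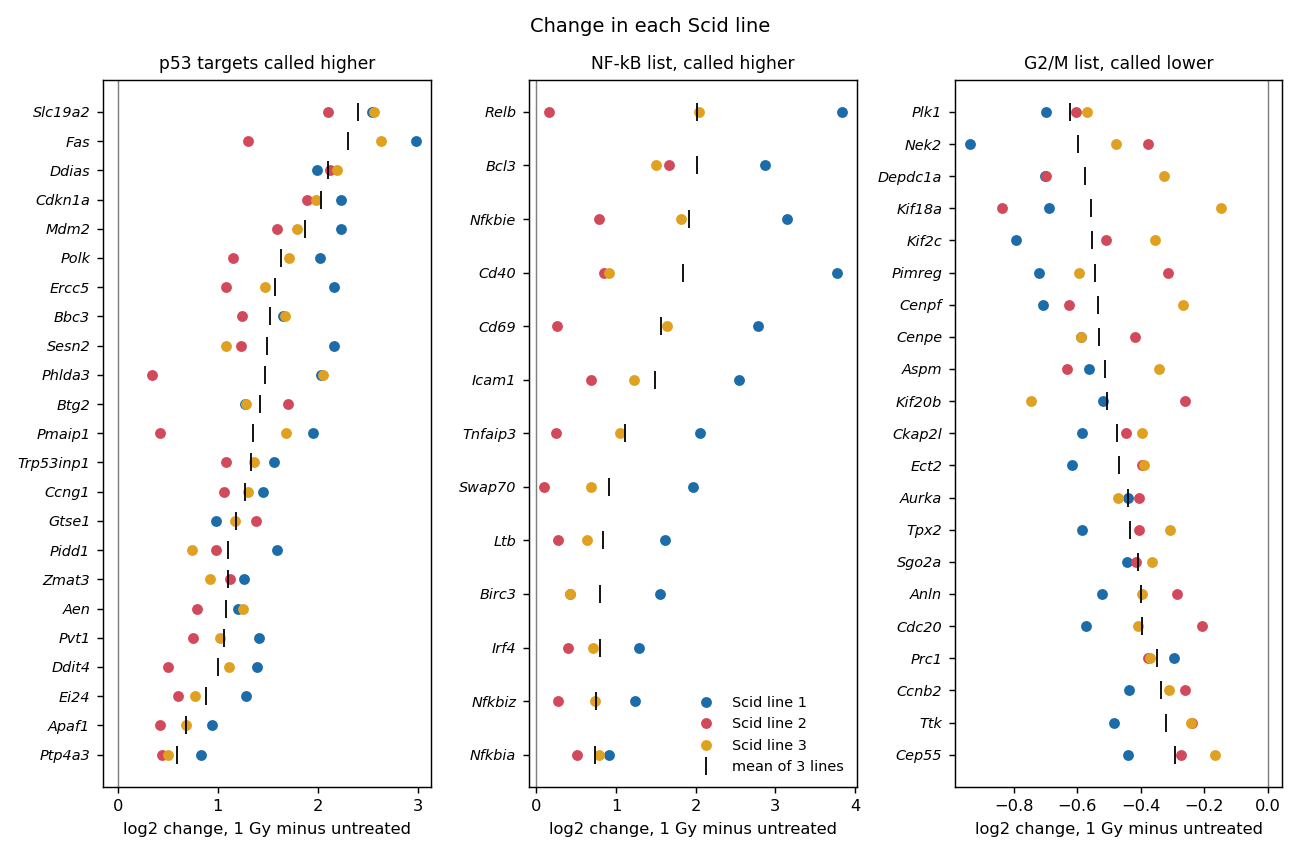
Log2 change (1 Gy minus untreated, horizontal axis) of called genes in each Scid line (coloured points) with the mean of the 3 lines (black tick), for 23 p53 targets, 13 NF-kB genes and 21 genes of G2 and mitosis. In the NF-kB panel line 1 has the largest change of all 13 genes, as it has for 158 of all 213 genes called higher. The NF-kB medians are 2.05 in line 1 and 0.40 in line 2. The horizontal axes differ between panels.

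Genes of G2 and mitosis fell by small amounts in all lines. Of 55 measured genes 21 were called lower (38.2%, against 0.963% of all genes) and 1 higher. The list median was -0.28, and 44 of 55 were lower in all 3 lines, against 17.9% of all genes. Plk1, the kinase that drives mitotic entry, had the largest called decrease, with 1501, 1499 and 1803 irradiated, against 2446, 2287 and 2680 untreated. The groups did not overlap, and the change was -0.62 ± 0.10 (SE, n = 3, limma adjusted p = 0.000572). Aspm, a spindle pole protein, read 1485, 1071 and 1579 irradiated, against 2202, 1667 and 2005 untreated (-0.51 ± 0.07, n = 3, limma adjusted p = 6.33e-05), with weaker changes of -0.37 to -0.02 on its other probe sets. Tpx2, the activator of Aurora A, read 1574, 1715 and 1938 irradiated, against 2367, 2274 and 2404 untreated, and its change of -0.43 was the single decrease also called without pairing, while its other probe sets changed by -0.43 to -0.03. Cenpe and Cenpf, kinetochore proteins, both fell by 0.53 on the log2 scale, Nek2, a centrosome kinase, by 0.60, Kif2c, a microtubule-depolymerizing kinesin, by 0.55, and Aurka, the Aurora A kinase, by 0.44. Other probe sets changed by -0.65 to -0.12 for Cenpf, by -0.38 to -0.13 for Nek2 and by -0.62 to -0.21 for Kif2c. The decreases of the 21 genes ranged from 0.29 to 0.62 on the log2 scale. Without line 1, 8 of the 21 were called.

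The exception was Psrc1, a microtubule-associated protein and known p53 target, which rose by 1.22 ± 0.19 (SE, n = 3, limma adjusted p = 0.000452). It read 8594, 3003 and 3569 irradiated, against 4125, 1181 and 1472 untreated, and its groups overlapped because line 1 was high throughout. Of 46 genes of G1/S and replication 2 were called, both lower (4.35%, against 0.963% of all genes). These were E2f2, an E2F transcription factor (-0.46, limma adjusted p = 0.00148, n = 3), and Dbf4, the activating subunit of the Cdc7 kinase (-0.30). Another probe set of E2f2 changed by 0.02. Cdc6, which loads the replicative helicase, had a change of -0.29 that did not pass (limma adjusted p = 0.0723, n = 3), and the ribonucleotide reductase gene Rrm2 one of 0.25. Whether fewer cells were in mitosis or each cell held less of these transcripts cannot be told apart in RNA from whole cultures.

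Some of the strongest increases lay outside the lists. The transcript 9230114K14Rik had the largest called change of all genes, with 4857, 2163 and 2316 irradiated, against 521, 431 and 308 untreated (2.77 ± 0.31, SE, n = 3, limma adjusted p = 8.57e-06). Enc1, an actin-binding Kelch protein, rose by 2.17, Glipr1 by 1.78, Susd6 by 1.63 and Dyrk3, a kinase that dissolves stress granules, by 1.5. Susd6 read 1038, 585 and 584 irradiated, against 352, 228 and 128 untreated, without overlap. Another probe set of Glipr1 changed by 0.39. Inka2 rose by 1.54 at low signals, with 150, 280 and 192 irradiated, against 84.4, 49.2 and 47.6 untreated, of which lines 2 and 3 lay under the array medians. Col5a1, a collagen chain, was called higher at 1.70 although 1 irradiated array, at 58.9, and all untreated arrays, at 13.2, 14.2 and 44.5, lay under their array medians.

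The largest decreases were low signals of the same kind. The genes 2610005M20Rik, Fv1, Ctrc and Morn1 were called lower with log2 changes of -2.02, -1.89, -1.82 and -1.75. Fv1, a restriction factor against murine leukaemia viruses, read 16.7, 20.1 and 18.7 irradiated, against 129, 108 and 99.7 untreated. Morn1 read 10.9, 18.2 and 13.3 irradiated, against 67.5, 109 and 82.9 untreated. The irradiated values of all 4 genes lay under the array medians. The untreated ones, between 55.6 and 147, lay mostly above their array medians of 68 to 82.7, so these folds rest on dim signals. Their changes in WT lines were 0.39, -0.10, 0.76 and 0.09, and none of these passed. Of the 119 genes called lower, 6 had both group means under 150, as had 4 of the 213 called higher.

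Among B-lineage genes, the recombinase gene Rag1 fell. It read 131, 84.7 and 160 irradiated, against 376, 125 and 401 untreated, so that the groups overlapped through the low line 2, and the change was -1.41, -0.49 and -1.25 within lines (mean -1.05 ± 0.18, SE, n = 3, limma adjusted p = 0.00107). Rag2, its partner, read 58.2, 7.69 and 54.2 irradiated, against 94.5, 10.1 and 119 untreated, with a change of -0.55 that did not pass (limma adjusted p = 0.291, n = 3). Cd22, an inhibitory coreceptor, fell by 0.43 on the log2 scale and Cd2, an adhesion molecule, by 0.40. Rag1, Cd22 and Cd2 were the 3 called genes of 26 in the list of recombinase and pre-B cell genes, against 0.963% of all genes called lower. None of the 26 was called higher, but only 1.72% of all genes were, so this absence is no result.

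Of 34 B-lineage transcription factors 3 were called higher (8.82%, against 1.72% of all genes) and 2 lower (5.88%, against 0.963%). Spib, an Ets factor related to PU.1, read 4308, 1068 and 2754 irradiated, against 1360, 354 and 1358 untreated (1.41 ± 0.19, SE, n = 3, limma adjusted p = 0.00011). Irf4, which with Spib or PU.1 activates light-chain enhancers and is also in the NF-kB list, read 5576, 3286 and 3644 irradiated, against 2276, 2481 and 2223 untreated. Its groups did not overlap and it rose by 0.80, while another of its probe sets changed by 0.28. Foxo3, a forkhead factor of quiescence, rose by 0.80, and Ikzf1 (Ikaros) and Myb fell by 0.34 and 0.29 on the log2 scale. Another probe set of Ikzf1 changed by -0.17.

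Myc, the growth factor-responsive transcription factor, fell in each line. It read 2184, 6746 and 3023 irradiated, against 4476, 9039 and 4342 untreated, with a change of -0.66 ± 0.12 (SE, n = 3, limma adjusted p = 0.00134); the groups overlapped because line 2 had the highest Myc under both conditions. It was the single called gene of 23 in the list of Myc and its network (4.35% lower, against 0.963% of all genes). Of 22 genes of Abl, Stat5 and cytokine signalling, the kinase Pim2 was called higher at 0.68, with changes of 1.51, -0.08 and 0.61 in lines 1, 2 and 3, and Pik3ip1, a negative regulator of PI3 kinase, was called lower at -0.48. Of 18 Foxo-type quiescence genes, Rbl2, which encodes the pocket protein p130, and Btg1 (0.15 to 0.70 on its other probe sets) rose by 0.55 and 0.33, while Pik3ip1 and Cdkn2d fell by 0.48 and 0.34 on the log2 scale. In the Abl list 4.55% were called in each direction and in the Foxo list 11.1%. Over all genes 1.72% were called higher and 0.963% lower.

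Genes of double-strand break repair were not among the calls, which made up 2.69% of all genes. None of 12 end-joining genes was called and the list median was -0.11; the smallest unadjusted p-values of the list in the limma fit were 0.00365 for Lig4 and 0.0116 for Prkdc (n = 3). Prkdc read 427, 551 and 447 irradiated, against 584, 591 and 550 untreated, groups that just overlapped (-0.28, limma adjusted p = 0.193, n = 3). Lig4, the end-joining ligase, had a change of -0.55 (limma adjusted p = 0.0982, n = 3), of which line 1 had -1.03 and line 2 -0.09. None of 24 genes of break sensing and checkpoint kinases was called, Atm (-0.18) and Chek2 (0.24) among them, and 1 had an unadjusted p under 0.05. Of 27 genes of homologous recombination and crosslink repair none was called and 2 had an unadjusted p under 0.05. A miss of the threshold with 3 lines does not show that these levels were the same.

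In the remaining lists the calls were few in number. Called higher were 11.1% of immediate-early, 14.3% of homing, 4.55% of heat shock and 9.09% of oxidative stress genes, against 1.72% of all genes. Called lower were 10.5% of glycolysis and hypoxia genes, against 0.963% of all genes. Of 27 immediate-early genes 3 rose: Ier5 by 0.93, Junb, an AP-1 subunit, by 0.91 and Btg1. Of 21 homing and migration genes 3 rose, namely Icam1, Cd69 and Swap70, which the NF-kB list also holds. Of 22 heat shock and unfolded protein genes, Hspa1b, an inducible Hsp70, was called at 1.5, but its changes were 3.20, 0.52 and 0.77 in lines 1, 2 and 3, and its near-identical copy Hspa1a, which can share signal with it, had 2.89, -0.20 and -0.001. Of 19 glycolysis and hypoxia genes Vegfa and Hk2 fell by 0.41 and 0.34 on the log2 scale, and of 11 oxidative stress genes Txnrd1, thioredoxin reductase, rose by 0.80. Other probe sets changed by -0.09 for Vegfa and by 0.29 to 0.46 for Txnrd1. None of 18 interferon-response genes and 5 histone and histone-processing genes was called by limma (1 of either list at an unadjusted p under 0.05), nor any of the measured markers of T, myeloid, erythroid and stromal cells.

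Scid lines shared many calls with WT lines. Of the 332 Scid calls 197 were also called in WT lines in the same direction, which is 59.3% of the Scid and 42.4% of the 465 WT calls (247 higher, 2%, and 218 lower, 1.76%), and 0 were called in opposite directions. The genes called higher in Scid lines had a median change of 0.74 there and 0.62 in WT lines, and those called lower had -0.42 and -0.30; since they were chosen by their Scid values, the larger Scid medians are no result. A test of the difference between both responses called 1 of 12363 genes (0.00809%), with 660 at an unadjusted p under 0.05, and 0 without WT line 4 and Atm-/- line 2. That gene was Igk, immunoglobulin kappa, with a Scid response of -0.71 and a WT response of 1.35 (difference -2.05 ± 0.34, SE, n = 3 lines each, limma adjusted p = 0.0417). Its Scid signals were 65.8, 5.62 and 16.4 irradiated, against 127, 7.90 and 56.4 untreated, mostly under the array medians. Against the mean response of the 6 other genotypes 0 genes were called in the paired limma fit and 0 without pairing, with 783 and 219 at an unadjusted p under 0.05.

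Mdm2 changed by 1.87 in Scid and 1.16 in WT lines, Cdkn1a by 2.04 and 1.77, Relb by 2.01 and 2.91, and Plk1 by -0.62 and -0.24, and the difference of none of these passed. By list, 23 p53 targets were called higher in Scid and 24 in WT lines, with medians of 0.95 and 0.79. NF-kB genes had 13 and 20 calls, with medians of 0.61 and 0.74. Of the genes of G2 and mitosis 21 were called lower in Scid and 11 in WT lines, with medians of -0.28 and -0.13, and none of the differences behind these counts was called.

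A test of the difference from the response of Atm-/- lines called 213 genes (1.72%), 126 with a higher response in Scid lines (1.02%) and 87 with a lower one (0.704%); without Atm-/- line 2 and WT line 4 it called 425, and without Scid line 1 it called 66. Among the 213 genes called higher in Scid lines 79 differed from Atm-/- lines, as did 40 of the 119 called lower. The Scid response was the higher one for all 79 and the lower one for all 40, and it was also larger in size for 78 and 38 of them. Because these genes were first called in the Scid response, this direction and size follow largely from the choice and are no result. The genes called higher in Scid lines had a median change of 0.05 in Atm-/- lines, and since they were chosen by their Scid values this median is no result. Of the p53 targets 17 differed, all higher in Scid lines, of the NF-kB genes 9 were higher and 1 lower, and of the genes of G2 and mitosis 10 were lower. Mdm2 changed by 1.87 in Scid and -0.03 in Atm-/- lines (difference 1.91 ± 0.27, SE, n = 3 each, limma adjusted p = 0.000806), Btg2 by 1.42 and -0.62 (2.04 ± 0.29, limma adjusted p = 0.000806), and Cdkn1a by 2.04 and 0.33 (1.70 ± 0.25, limma adjusted p = 0.00102).

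Scid and Atm-/- calls shared 8 genes, of the 164 (1.33%) called in Atm-/- lines (64 higher, 0.518%, and 100 lower, 0.809%). Bbc3 was called higher in both, at 1.52 in Scid and 0.89 in Atm-/- lines, and the difference of 0.63 did not pass (limma adjusted p = 0.294, n = 3 each). The other 7 were called in opposite directions. Junb, Leng8 and Rab21 were higher after radiation in Scid lines, at 0.91, 0.66 and 0.37, and lower in Atm-/- lines, at -0.84, -0.73 and -0.33. B3galnt2, Cenpc1, E2f2 and Pik3ip1 were lower in Scid lines, at -0.49, -0.34, -0.46 and -0.48, and higher in Atm-/- lines, at 0.64, 0.51, 0.37 and 0.44. The difference passed for all 7 genes, with limma adjusted p from 0.000716 to 0.00455 (n = 3 each). Since they were picked for calls of opposite sign in the same fit, this was nearly fixed in advance and adds no support. Other probe sets changed in Scid lines by 0.01 for Rab21 and by -0.17 to -0.09 for B3galnt2. Leng8 and Rab21 were chosen after their values were seen.

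**Figure D4:**
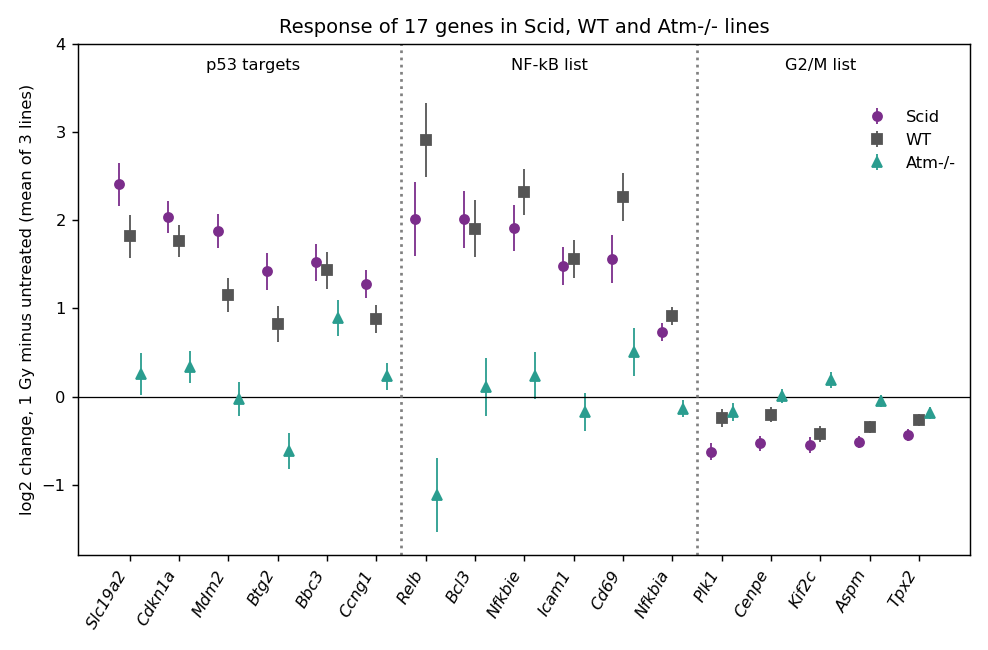
Log2 change after 1 Gy (mean of 3 lines, vertical axis; bars are 1 SE of the paired limma fit) of 17 genes in Scid (circles), WT (squares) and Atm-/- lines (triangles). For Cdkn1a the points lie at 2.04 in Scid, 1.77 in WT and 0.33 in Atm-/- lines, and in all 12 p53 targets and NF-kB genes drawn the Atm-/- point is the lowest. The 12 genes were drawn from those called higher in Scid lines. An Atm-/- point under the Scid point follows largely from that choice and is no result.

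The promoter sequences of the called genes were searched from 250 bases before to 50 after the start. Over all 32851 promoters of the RefSeq table, 8.46% held a kB consensus, 8.36% a p53 half-site, 17.9% a CHR (TTTGAA) and 37.4% a CCAAT box. Counted per gene, with a match in any of its promoters, the shares of 27025 genes were 9.55%, 9.55%, 20.2% and 41.1%. The shares that follow are per gene. A promoter was found for 9991 of the genes tested, for 182 called higher and for 99 called lower. The CHR stood in 37.4% of the genes called lower, against 17.6% of those called higher and 14.6% of all genes tested. The p53 half-site stood in 13.7% of the genes called higher, 6.06% of those called lower and 8.19% of all tested, and the kB consensus in 17%, 11.1% and 12.2%.

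The CHR shown above for Aspm, Cenpf, Depdc1a and Cdc20 was found in 15 of the 19 genes of G2 and mitosis that fell and have a promoter in the table, and a CCAAT box in 14 of them. It was also found in 14 of 25 genes of the same list that were measured and not called, with a CCAAT box in 20. A kB consensus was found in 5 of 9 called NF-kB genes and in 7 of 17 not called. A p53 half-site was found in 7 of 18 called p53 targets, Cdkn1a, Mdm2 and Ccng1 included, and in 4 of 18 not called. The lists are of genes picked for these programmes, so their shares carry no test.

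**Figure D5:**
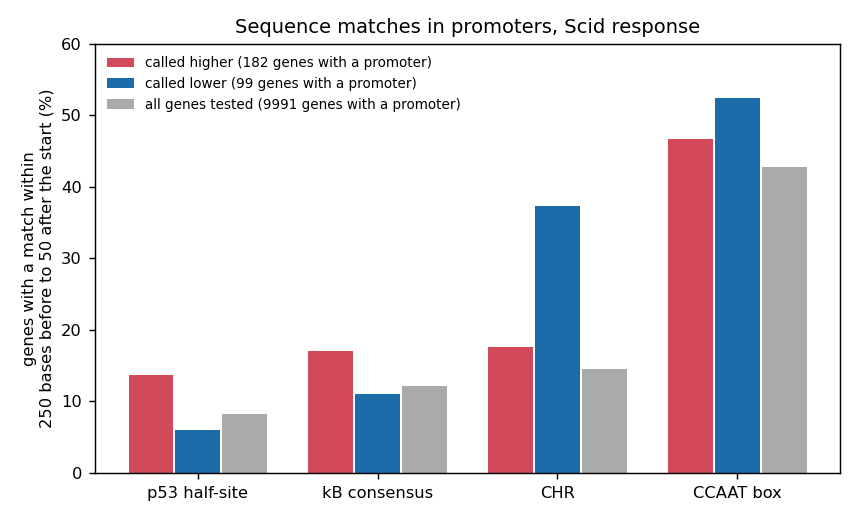
Share of genes (percent, vertical axis) whose promoter, from 250 bases before to 50 after the start, holds a p53 half-site, kB consensus, CHR or CCAAT box, for genes called higher (182), called lower (99) and all genes tested (9991) in Scid lines. The blue CHR bar of the genes called lower reaches 37.4%, against 17.6% and 14.6% for the other bars of that motif.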

How the data were processed

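Total RNA of 21 lines was hybridized to 42 arrays. The deposited values are linear-scale intensities from MAS5, as the submitters' processing notes say, and the mean of every array is 500 once 2% of values are trimmed from either end. Probe sets above the median of their own array on at least 3 arrays were kept. For each of 12363 genes the kept probe set of the highest average log2 signal was used, named from the platform annotation; for called genes other probe sets are given where one changed by under 0.5 of the value used. Values were tested as log2(signal + 16), which understates changes of dim genes. In R 4.3.3, limma 3.58.1 fitted all 42 arrays with a fixed block for each line (14 degrees of freedom left, intensity trend), and two-sided p-values were Benjamini-Hochberg adjusted over all genes (threshold 0.05). The same replicate number was taken as the same line, since the departures of same-numbered arrays from their group means had correlations of 0.57 to 0.64 in the 3 Scid pairs and 0.35 to 0.64 in all 21 pairs. All SE are of this paired fit, so they use the spread pooled over all 21 lines, while n counts the lines of the group. The number of arrays limits the precision. The tool data.table (1.17.8) read the values, and pandas 2.3.3, numpy 2.4.6 and matplotlib 3.10.9 in Python 3.11.15 served for the promoter search and the plots.

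Members, the 25 gene lists and the design were chosen with earlier results of these data known. Named genes were the end-joining list, the 20 largest called increases and 12 largest called decreases without overlapping arrays, up to 8 genes of each list by p, and up to 8 per comparison with other responses; genes outside this rule are marked as chosen after their values were seen. Alternatives were no pairing, a random block, Scid arrays alone, other pseudocounts, filters, scalings and probe-set rules, no intensity trend, and leaving out each Scid line or the lines with arrays that stood apart.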

Additional observations from a re-analysis of the deposited data

Results flagged for a closer look

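The radiation response differed between Scid and Atm-/- lines for 213 genes by a test of the difference itself (limma, line as a block, n = 3 lines each). Of the 8 with the smallest p, 5 were higher in Scid lines: Btg2 by 2.04, Mdm2 by 1.91, Cdkn1a by 1.70, Kifc5b by 1.54 and Bloc1s2 by 1.21, all as differences of log2 changes. Kifc5b, a kinesin whose near-identical copy Kifc1 can share its signal and makes its level uncertain, read 724, 717 and 868 irradiated, against 289, 226 and 335 untreated, in Scid lines. It changed by 1.41 in Scid and -0.13 in Atm-/- lines. Bloc1s2, a subunit of a lysosome-positioning complex, read 5460, 5123 and 5129 irradiated, against 2069, 3111 and 2651 untreated, in Scid lines, and it changed by 1.02 in Scid and -0.19 in Atm-/- lines. The other 3 were lower in Scid lines: B3galnt2, a glycosyltransferase, by -1.13, the centromere gene Cenpc1 by -0.84 and E2f2 by -0.84. B3galnt2 read 880, 902 and 1131 irradiated, against 1409, 1490 and 1205 untreated, in Scid lines, without overlap.

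Against WT lines the response of 1 gene, Igk, differed, by -2.05. No group of 3 arrays can be searched for single arrays that stand apart by the criterion used for larger groups.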

How the results depend on the processing

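With no replicate block 9 genes were called, 8 higher and 1 lower, with 2 p53 targets, 2 NF-kB genes and 1 gene of G2 and mitosis among them; the differences from WT and from Atm-/- lines then numbered 0 and 0. With a random block the count was 217 (157 higher, 60 lower), on the Scid arrays alone 155 (129 and 26, with 5 NF-kB genes), and with no variance trend 195 (135 and 60, with 13 genes of G2 and mitosis and 50 differences from Atm-/- lines). Leaving out 1 Scid line gave 66 to 326 genes (52 to 222 higher, 14 to 104 lower), 4 to 16 NF-kB genes, 17 to 24 p53 targets, 8 to 16 genes of G2 and mitosis, 0 to 3 differences from WT lines, 66 to 218 from Atm-/- lines and 0 to 1 from the mean of the others; the lowest gene counts came without line 1, and without line 3 the count was 213 (147 and 66). The difference of Igk from WT was lost, leaving 0, with a pseudocount of 64, no filter, a filter on Scid arrays, quantile normalization, the mean of probe sets, or without WT line 4 and Atm-/- line 2. The mean of probe sets gave 128 differences from Atm-/- lines, and leaving out those 2 lines gave 425, and 1 from the mean of the others. The share of higher calls was 64.2% with the reported settings, 88.9% with no replicate block, 83.2% on Scid arrays alone and 78.8% without line 1. Igk changed by 0.33 with the filter on Scid arrays, which selects another probe set, and Hspa1a by -0.10 to 1.44 with 1 line left out (-0.10 without line 1). Of 111 named genes 85 were called; 36 remained called without each Scid line in turn, and no called one reversed. The causes of these shifts were not tested. Dim signals, near or under the array medians, limit the calls of Fv1, Ctrc, Morn1, 2610005M20Rik and Igk, and the folds of Fas, Relb, Cd40, Bcl3, Inka2 and Col5a1.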
